A study of Mus musculus with 6 samples.

Results

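The nuclear oxidative phosphorylation genes, which encode the subunits of respiratory complexes I, III and IV and of ATP synthase that are made in the cytosol, were followed through the cell types of livers from mice on a steatohepatitis regimen. They were chosen by name: symbols of the deposited gene table beginning with Ndufa, Ndufb, Ndufc, Ndufs, Ndufv, Uqcr, Cox4, Cox5, Cox6, Cox7, Cox8 or Atp5, without those ending in -ps. The rule found 90 genes of 31253, under 89 symbols because Atp5o is listed under 2 overlapping Ensembl identifiers whose reads cannot be told apart with certainty. Of these, 36 belong to complex I, 8 are complex I assembly factors (Ndufaf1 to Ndufaf8) that share its prefix, 8 belong to complex III, 20 to complex IV and 18 to ATP synthase, also called complex V.

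The livers came from 3 Stingfl/fl Cdh5-Cre+ mice, called knockout, and 3 Stingfl/fl Cdh5-Cre- littermates, called control. Both groups carried the floxed Sting alleles; in the knockouts a Cre recombinase under the promoter of Cdh5, the gene of the endothelial junction protein VE-cadherin, targets them for deletion in endothelium. All 6 mice ate chow until 8 weeks of age and then received western diet with CCl4 (WD-CCl4) for 12 weeks, a toxin and diet regimen that gives steatohepatitis. Each mouse gave 1 10x Genomics 3′ single-cell library of dissociated liver, in which unique molecular identifiers (UMIs) were counted per gene and cell. STING is a sensor adaptor for cytosolic DNA, and the study asked how its loss from endothelium changes the liver.

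The 3 knockout libraries held 55448411 to 73867890 UMIs and the 3 control libraries 55017937 to 65000706, over 5133 to 9212 barcodes each. Libraries shared 5 to 25 barcodes pairwise, at most 0.328% of the smaller library. After filtering, 41776 cells were clustered with the members and the mitochondrially encoded mt- genes left out of the variable genes. The labels give the cells as liver sinusoidal endothelial cells, but only 2637 cells were endothelial-like by Pecam1, Cdh5, Kdr and related markers. T-like cells (16155) and B-like cells (8332) were the most numerous, and 75 cells were hepatocyte-like, too few to describe. In 10 classes, at least 20 cells per library allowed a comparison of genotypes, and 3 more are described without one. Control 2 had the lowest median depth per cell in all 13 classes, for instance 5828 UMIs in endothelial-like cells, against 8594 to 10253.5 in the other 5 libraries.

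Oxidative phosphorylation moves electrons from NADH and succinate through complexes I to IV of the inner mitochondrial membrane to oxygen, and ATP synthase uses the resulting proton gradient to make ATP. Complexes I, III, IV and V are built from 2 genomes: the mt- genes encode 13 core subunits, and all others come from the nucleus. Nuclear respiratory factor 1 (NRF1), the ETS factor GABP, YY1 and the estrogen-related receptors are known regulators of the nuclear genes. Several complex IV subunits exist as isoforms, one found in most tissues and a second restricted to muscle, testis or oxygen-sensing cells.

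RefSeq gave promoter windows (GRCm38.p6, 250 bases before to 50 after the annotated start) for 73 of the 89 symbols, 78 windows in all. The windows of 4 members are shown because each holds a motif of these factors and because the first 3 genes lay lower, and Uqcrc1 higher, in knockout than in control cells of all 10 tested classes, though no such difference passed the test. Capitals mark matches to GCATGCGC (NRF1), CCGGAAG (ETS factors such as GABP) or AAGATGGC (YY1) on either strand. The capitals GCGCATGCGC hold the NRF1 motif on both strands, overlapping.
Atp5k, chr5:108434350-108434649, minus strand: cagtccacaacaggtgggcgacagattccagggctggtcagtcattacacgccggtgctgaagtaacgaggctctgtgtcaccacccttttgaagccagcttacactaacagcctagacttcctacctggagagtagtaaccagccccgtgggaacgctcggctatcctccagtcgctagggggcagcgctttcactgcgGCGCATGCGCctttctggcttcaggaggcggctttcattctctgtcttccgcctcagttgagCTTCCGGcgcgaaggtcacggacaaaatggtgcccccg
Atp5e, chr2:174464052-174464351, minus strand: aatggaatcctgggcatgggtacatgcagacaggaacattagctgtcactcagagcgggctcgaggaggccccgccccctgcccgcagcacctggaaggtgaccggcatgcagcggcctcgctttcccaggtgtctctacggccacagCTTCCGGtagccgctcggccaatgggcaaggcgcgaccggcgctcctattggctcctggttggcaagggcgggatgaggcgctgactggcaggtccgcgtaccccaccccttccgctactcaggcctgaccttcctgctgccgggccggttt
Ndufc1, chr3:51408906-51409205, minus strand: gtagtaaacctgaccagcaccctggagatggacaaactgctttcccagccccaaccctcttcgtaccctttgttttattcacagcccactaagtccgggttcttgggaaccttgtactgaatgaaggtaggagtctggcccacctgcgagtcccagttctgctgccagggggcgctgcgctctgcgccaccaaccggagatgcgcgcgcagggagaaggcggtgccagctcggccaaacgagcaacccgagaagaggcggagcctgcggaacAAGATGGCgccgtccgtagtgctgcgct
Uqcrc1, chr9:108936398-108936697, plus strand: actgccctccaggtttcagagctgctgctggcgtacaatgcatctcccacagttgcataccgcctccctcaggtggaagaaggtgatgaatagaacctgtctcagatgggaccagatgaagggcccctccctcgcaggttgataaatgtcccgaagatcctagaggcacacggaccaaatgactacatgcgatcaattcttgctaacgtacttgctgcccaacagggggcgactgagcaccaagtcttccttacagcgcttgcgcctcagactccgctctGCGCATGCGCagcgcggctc
Atp5k encodes the e subunit of ATP synthase, Atp5e its epsilon subunit, Ndufc1 an accessory subunit of complex I, and Uqcrc1 a core protein of complex III. Over all member windows the NRF1 motif was found in 11 of 78 (14.1%), against 2.71% of all 32851 windows and 5.17% of windows of genes tested in endothelial-like cells. The YY1 motif was found in 14.1% of member windows, against 2.75% of all windows and 4.34% of those tested. The ETS motif was found in 21.8% of member windows, against 8.86% and 17.3%. The estrogen-related receptor motif TCAAGGTCA was found in 1 member window, that of Atp5g3, or 1.28%, against 0.423% of all windows. The YY1 matches were in complex I, its assembly factors and complex V only, with 0 of 5 complex III windows and 0 of 14 complex IV windows. A match is a description of the letters and not evidence of binding.

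Most members were expressed in every class at differing levels. Of the 90 members, 84 reached 16 CPM in at least 1 of the 13 classes. CPM, the count scaled to a fixed library total, gives a gene's share of all UMIs summed over a class in a library. All levels by class are means ± SD over the 6 libraries, and since 3′ libraries count 1 tag per molecule, they were not divided by gene length. The ratio of a member's highest to its lowest class had a median of 3.47 among those of the 84 that were above 0 in every class. B-like cells held the lowest level for 53 of the 84 members and mature dendritic-like cells for 17. Smooth muscle or mural-like cells held the highest level for 25, mesothelial-like cells for 16, plasma-like cells for 14 and cholangiocyte-like cells for 10. The classes came from clustering, so these orders are descriptions and carry no test.

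**Figure D1:**
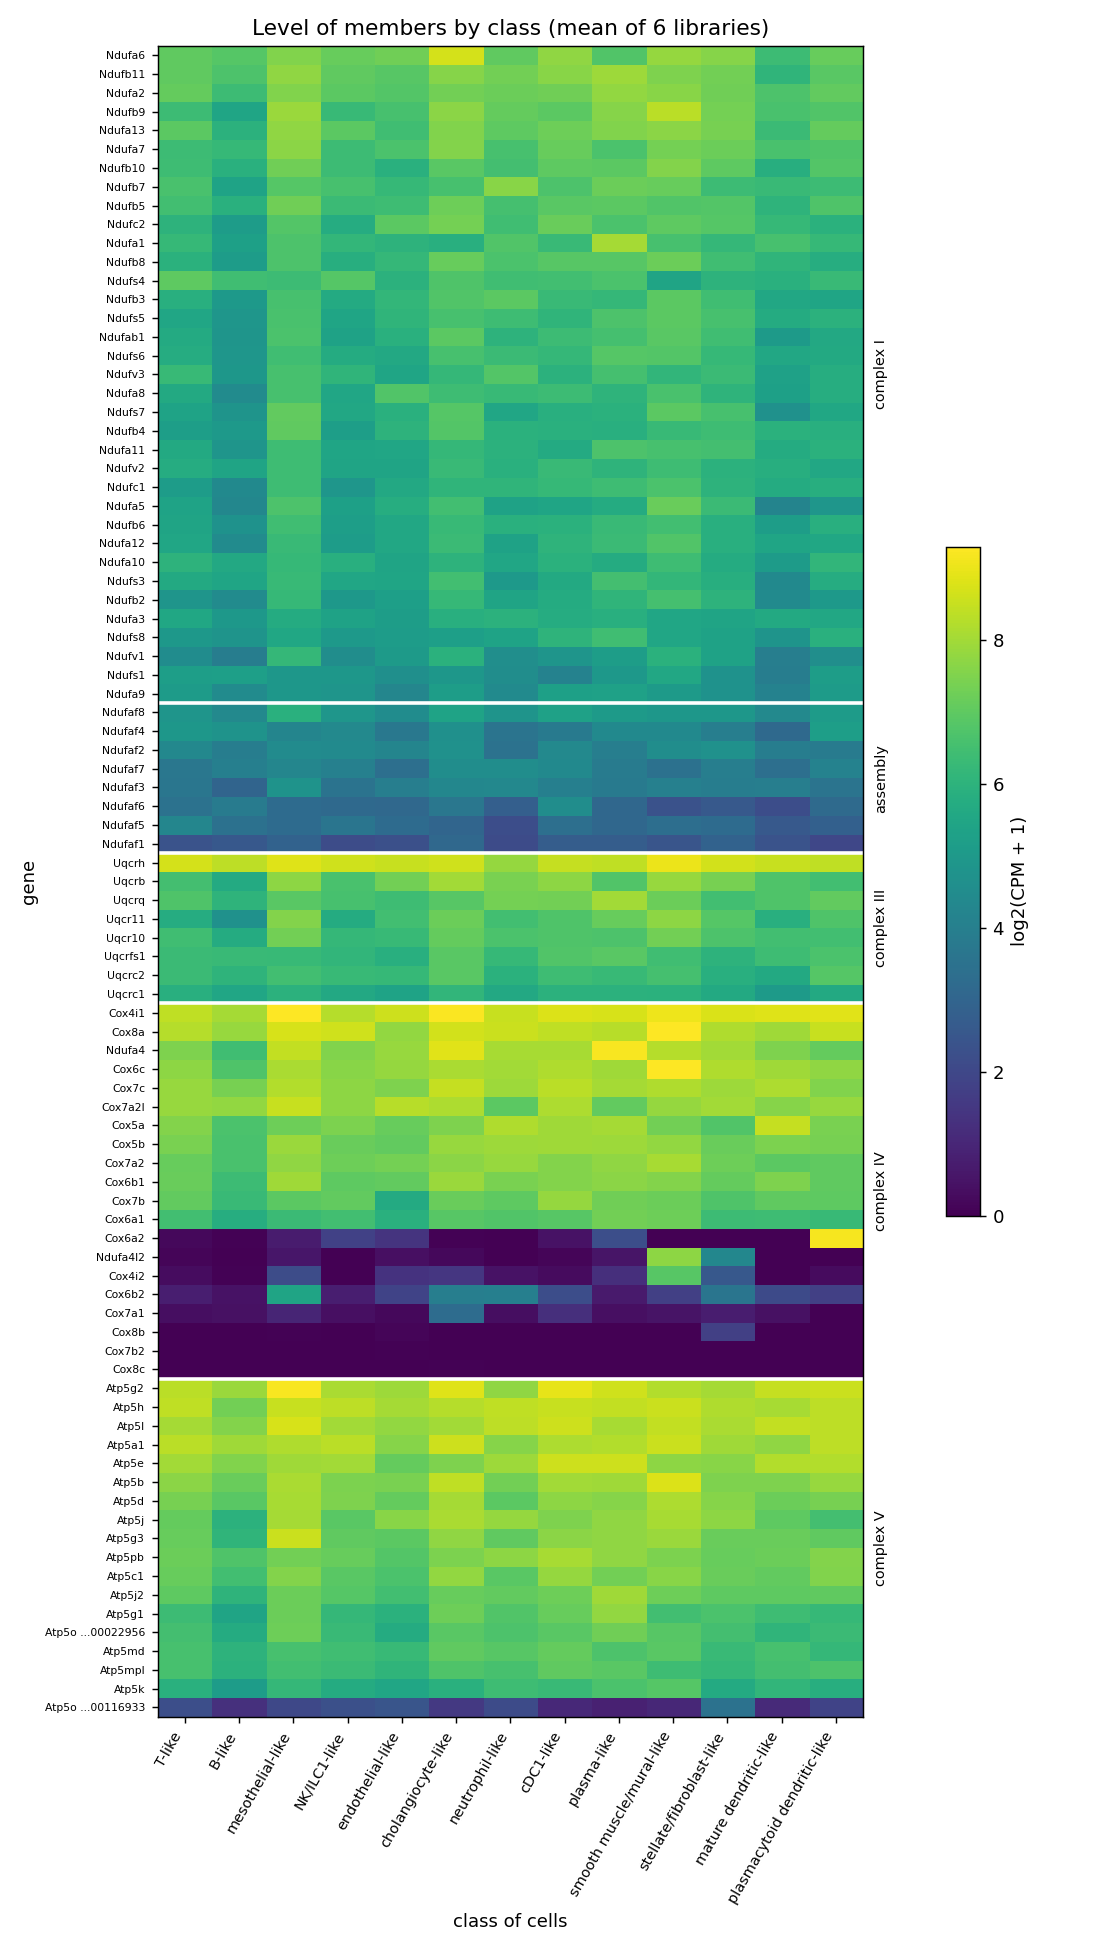
Heat map of the mean level of the members (rows, grouped by complex) in 13 cell classes (columns), as log2(CPM + 1) over 6 libraries. Yellow is high and dark violet low. The B-like column is darker than those of smooth muscle/mural-like, mesothelial-like and plasma-like cells, and Cox6a2, Cox4i2 and Ndufa4l2 are bright in 1 class each.

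Among complex I genes, the most abundant and the most variable peaked in different classes. Ndufa6, an accessory subunit and the complex I member of highest mean level, reached 413 ± 37.8 CPM in cholangiocyte-like cells, against 155 ± 21.1 CPM in endothelial-like, 113 ± 8.46 CPM in B-like and 82.0 ± 12.9 CPM in mature dendritic-like cells. The lowest cholangiocyte library (372 CPM) lay above the highest library of smooth muscle/mural-like cells (266 CPM), the next class. Ndufa5, an accessory subunit of the peripheral arm and the complex I member of widest range, had 145 ± 26.3 CPM in smooth muscle/mural-like cells and 17.3 ± 6.82 CPM in mature dendritic-like cells. Its mesothelial-like level (104 ± 20.4 CPM) overlapped that of smooth muscle/mural-like cells. Ndufa8 was the 1 member whose highest level was in endothelial-like cells, at 108 ± 32.3 CPM.

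In complex III and ATP synthase, smooth muscle/mural-like and mesothelial-like cells held the highest levels of the members named by level. Uqcrh, the hinge protein of complex III, was the complex III member of highest mean level, at 513 ± 58.5 CPM in smooth muscle/mural-like and 226 ± 62.8 CPM in neutrophil-like cells. Uqcr11, a small complex III subunit, had 210 ± 46.7 CPM in smooth muscle/mural-like, 141 ± 26.0 CPM in plasma-like and 25.2 ± 4.71 CPM in B-like cells. Among the genes for the c-ring of ATP synthase, the rotor through which protons pass, Atp5g2 had 588 ± 70.7 CPM in mesothelial-like, 245 ± 22.7 CPM in endothelial-like and 212 ± 120 CPM in neutrophil-like cells. Atp5g3, which encodes the same mature c subunit, had 371 ± 44.0 CPM in mesothelial-like, 124 ± 9.54 CPM in endothelial-like and 66.8 ± 5.004 CPM in B-like cells. For Atp5g3 the lowest mesothelial library (317 CPM) was above the highest library of the next class (264 CPM).

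The complex IV isoforms split into genes detected everywhere and genes found mostly in 1 class. Cox4i1, the ubiquitous isoform of subunit 4, ranged only from 262 ± 29.2 CPM in B-like to 614 ± 52.0 CPM in mesothelial-like cells. The other widely used isoforms were likewise detected in all 13 classes: Cox6a1 had 54.4 to 158 CPM, Cox6b1 82.8 to 247 CPM, Cox7a2 97.4 to 269 CPM, Cox7b 50.3 to 228 CPM and Cox8a 222 to 628 CPM. Endothelial-like cells were the lowest class for Cox7b and Cox8a, and next to lowest, above B-like cells, for Cox6a1. Ndufa4, once assigned to complex I and now placed in complex IV, had 594 ± 77.5 CPM in plasma-like, 230 ± 22.6 CPM in endothelial-like and 85.3 ± 10.1 CPM in B-like cells.

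Cox6a2 (chr7:128205435-128206387, minus strand), the isoform known from heart and skeletal muscle, was at 622, 499 and 689 CPM in plasmacytoid dendritic-like cells of the 3 knockout libraries, against 739, 522 and 386 CPM in the 3 control libraries. The genotypes overlapped. All other classes were at 3.72 CPM or less on average. A Cox6a2 UMI was seen in 155 of 179 plasmacytoid dendritic-like cells (86.6%, exact 95% interval 80.7% to 91.2%), at a median of 10318 UMIs per cell. The share was 0.531% in endothelial-like cells (median 8879 UMIs) and 0.0805% in T-like cells (median 5169 UMIs). With every cell thinned to 2000 UMIs, the shares were 58.4%, 0.245% and 0.0270%. The interval pools the cells of all libraries, 75 of the 179 from knockout 1, and does not cover the spread between mice. Cox6a1, the usual isoform, was also present in plasmacytoid dendritic-like cells, at 75.2 ± 32.5 CPM.

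Cox4i2 (chr2:152754173-152765037, plus strand), the subunit 4 isoform known from lung and oxygen-sensing cells, was highest in smooth muscle/mural-like cells. Its levels there were 83.3, 131 and 156 CPM in knockout libraries, against 129, 82.1 and 122 CPM in control libraries. The genotypes overlapped, and the knockout 1 value rests on 12 cells. The next class was stellate/fibroblast-like cells at 4.95 ± 4.01 CPM, and endothelial-like cells had 1.56 ± 1.11 CPM. A UMI was seen in 344 of 710 smooth muscle/mural-like cells (48.5%, exact interval 44.7% to 52.2%, median 9068.5 UMIs per cell) and in 0.149% of T-like cells. After thinning the shares were 17.9% and 0.0203%. This interval too pools cells, 398 of the 710 from control 2, and does not cover the spread between mice.

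Ndufa4l2 (chr10:127514967-127517154, plus strand), a paralogue of Ndufa4 known as a hypoxia-inducible gene, shared that class. It had 172, 199.995 and 325 CPM in smooth muscle/mural-like cells of knockout libraries, against 245, 126 and 204 CPM in control libraries. These values overlap as well. In stellate/fibroblast-like cells it had 18.5 ± 10.3 CPM, and in each of the other 11 classes at most 0.48 CPM. Of all its UMIs in named classes, 87.9% (1306 of 1485) were in smooth muscle/mural-like cells.

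Cox6b2 (chr7:4751792-4753094, minus strand), known from testis, was more spread. Mesothelial-like cells had 59.8, 21.3 and 24.7 CPM in knockout libraries, against 36.0, 45.7 and 64.7 CPM in control libraries, with overlap. Neutrophil-like cells had 14.98 ± 8.80 CPM, cholangiocyte-like cells 14.7 ± 6.05 CPM and stellate/fibroblast-like cells 11.3 ± 6.17 CPM. A Cox6b2 UMI was found in 42.5% of mesothelial-like cells at a median depth of 19046 UMIs and in 0.390% of T-like cells, and after thinning in 8.10% and 0.101%. Cox7a1, the heart and skeletal muscle isoform of subunit 7a, had 8.86 ± 2.32 CPM in cholangiocyte-like cells and at most 1.36 CPM elsewhere. Cox7b2, Cox8b and Cox8c had 2, 19 and 1 UMIs over all named classes, and 14 of the Cox8b UMIs were in stellate/fibroblast-like cells.

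**Figure D2:**
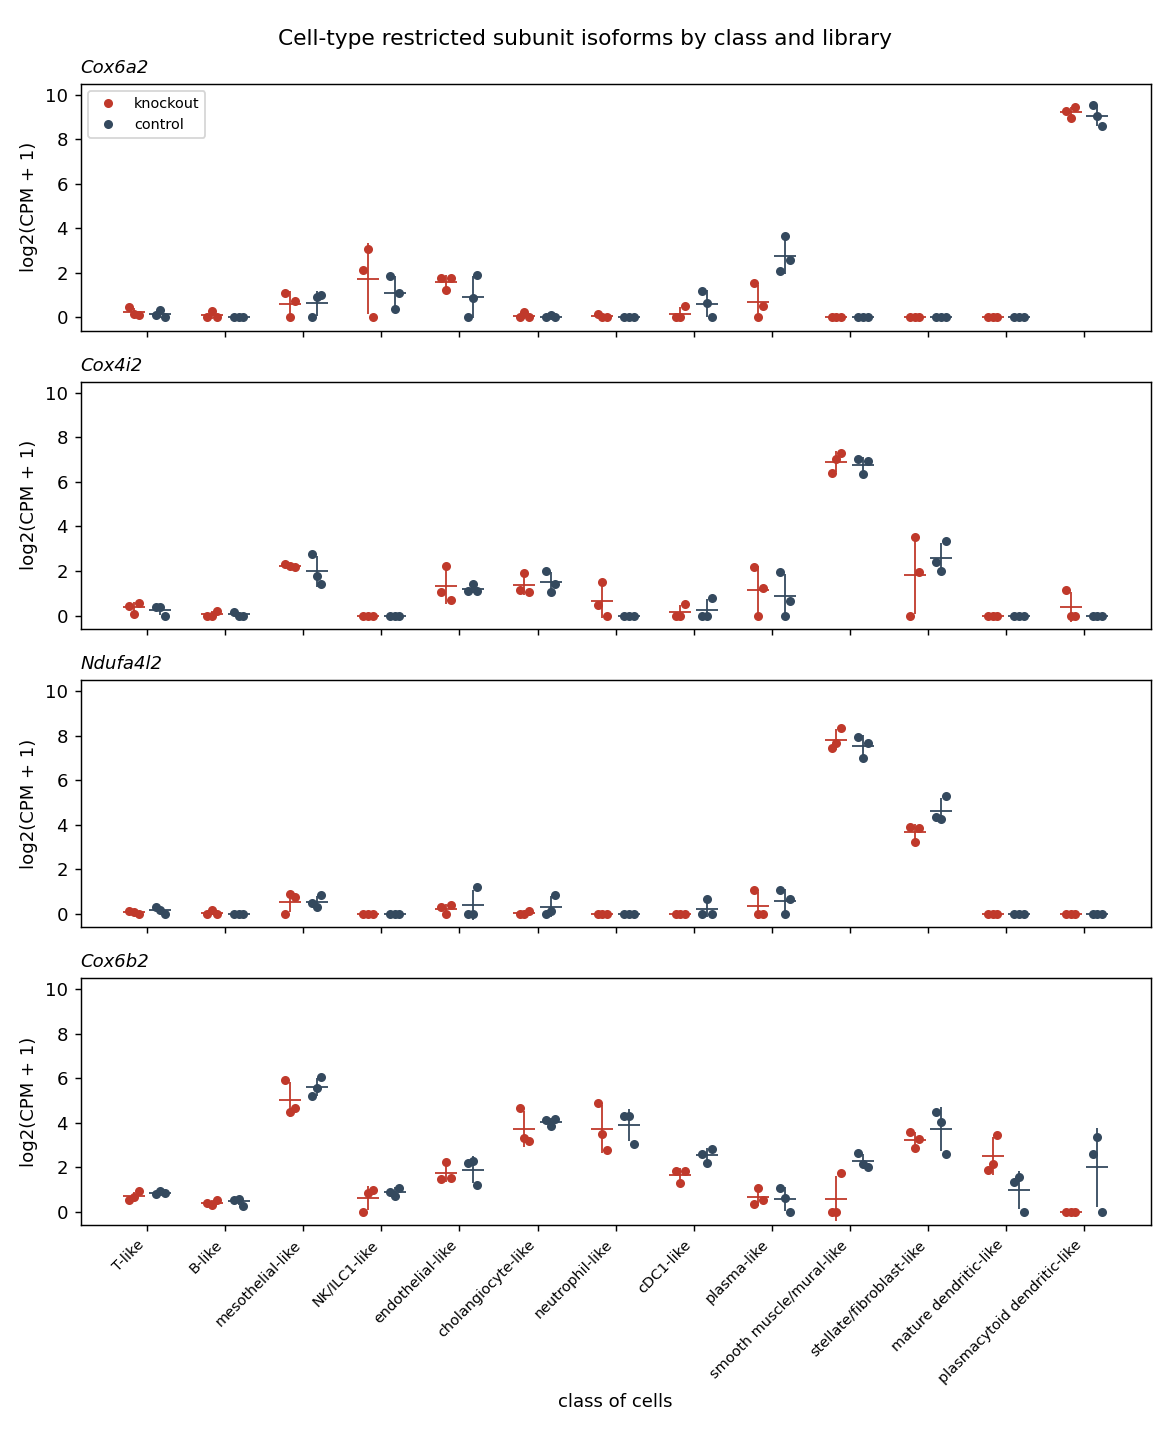
Levels of Cox6a2, Cox4i2, Ndufa4l2 and Cox6b2 as log2(CPM + 1) in each class, with 1 point per library, knockout points left of control points and bars for the mean ± SD of 3. Cox6a2 is high in plasmacytoid dendritic-like cells, Cox4i2 and Ndufa4l2 in smooth muscle/mural-like cells, and Cox6b2 in mesothelial-like cells, with the genotypes overlapping in each.

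The genes whose mean log2(CPM + 1) over the 13 classes was most like that of Cox4i2, among 11738 genes, were Ldb3, Atp1b2, Cspg4, Itga10 and Ngb (Pearson r 0.96 to 0.97). For Cox6a2 they were Gm21762, Cd209d, D7Ertd443e, Clec10a and Dntt (r 0.95 to 0.96). These r values describe 13 classes of the same 6 libraries and carry no p.

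Several related classes differed across most members. Plasma-like cells, which secrete antibody, were above B-like cells in every library for 66 of the 75 members at 16 CPM or more in either class, with a median fold of 2.21. Ndufa1, an accessory complex I subunit, had 264 ± 35.9 CPM in plasma-like and 37.8 ± 6.74 CPM in B-like cells, a 6.99-fold difference. Uqcr11 differed 5.59-fold and Atp5g1, a c-ring gene, 5.30-fold. The exceptions, lower in plasma-like cells of all 6 libraries, were Cox7a2l, a supercomplex assembly factor, at 133 ± 17.1 CPM in plasma-like and 221 ± 28.7 CPM in B-like cells, and the complex I assembly factor Ndufaf4, at 20.2 ± 4.23 CPM in plasma-like and 26.7 ± 3.80 CPM in B-like cells. Mature dendritic-like cells were below cDC1-like cells in every library for 58 of 77 members, with a median fold of 0.676. Cox5a, a complex IV subunit, was the 1 member above, at 356 ± 107 CPM in mature dendritic-like and 253 ± 26.0 CPM in cDC1-like cells. Ndufb11, a complex I accessory subunit, was at 67.4 ± 6.67 CPM in mature dendritic-like and 199 ± 24.8 CPM in cDC1-like cells.

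Cholangiocyte-like cells exceeded endothelial-like cells in every library for 70 of 78 members (median fold 1.68), with Cox7b at 143 ± 7.59 CPM in cholangiocyte-like and 50.3 ± 8.67 CPM in endothelial-like cells. Smooth muscle/mural-like cells exceeded stellate/fibroblast-like cells for 44 of 78 (median fold 1.38). Atp5b, the catalytic beta subunit of ATP synthase, was at 452 ± 76.7 CPM in smooth muscle/mural-like and 180.1 ± 27.4 CPM in stellate/fibroblast-like cells. Endothelial-like cells were above T-like cells for 23 members and below for 39 of 77 (median fold 0.851). Uqcrb was higher in endothelial-like cells, at 159 ± 14.97 CPM against 91.8 ± 17.6 CPM in T-like cells, and Cox7b was lower, at 50.3 ± 8.67 CPM against 131 ± 17.3 CPM in T-like cells. All of these pairs come from clustering and carry no test.

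Neutrophil-like cells held a further split. A cluster led by Camp, Ngp and Prtn3, genes of developing granulocytes, was above the cluster led by Cxcl2, Retnlg and Acod1 in every library for 72 of 78 members, with a median fold of 3.31. Atp5g1 had 187 ± 84.0 CPM in that cluster and 13.1 ± 3.82 CPM in the other. Cox6b2 had 29.3 ± 11.3 CPM in the Camp cluster and 2.21 ± 2.41 CPM in the other. Of the cells of the Camp cluster, 165 came from knockout 1 and 8 to 27 from each other library, so the clusters enter the neutrophil-like sums in different proportions in each library. Median depth per cell was 27877 UMIs in the Camp cluster and 4482 in the other, and its part in the difference was not tested.

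Summed over the 90 members, UMIs per 10000 gave 1 level per library. Endothelial-like cells had 82.3, 71.6 and 76.3 in knockout libraries, against 87.6, 76.8 and 79.5 in control libraries. The groups overlapped. The class means over 6 libraries ran from 58.0 ± 5.62 in B-like cells to 138 ± 13.1 in smooth muscle/mural-like cells, with mesothelial-like cells at 131 ± 6.85, cholangiocyte-like at 128 ± 1.99 and plasma-like at 121 ± 9.76. In plasma-like cells the sums were 109, 116 and 113 in knockout libraries, against 135, 127 and 124 in control libraries. This was the 1 class of 13 with no overlap between genotypes. Cytosolic ribosomal protein genes were lower there too, at 1114, 1174 and 1093 per 10000 in knockout plasma-like cells and 1386, 1217 and 1186 in control. The sum of B-cell markers was lower as well, at 10.8, 9.92 and 11.2 in knockout against 13.3, 12.3 and 11.4 in control, with none of the 8 markers at 0; its part in the result was not tested. With library totals rescaled by TMM normalization, the median log2 fold change of the members in plasma-like cells was -0.03. This median weighs every member alike, unlike the sum. By complex it was 0.03 for complex I, 0.11 for its assembly factors, -0.17 for complex III, -0.19 for complex IV and -0.02 for complex V.

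The sum of the 13 mt- genes was higher on average in knockout cells. Its knockout mean was above the control mean in 13 of 13 classes, and every knockout library was above every control library in 6: T-like, B-like, mesothelial-like, NK/ILC1-like, smooth muscle/mural-like and stellate/fibroblast-like cells. The smooth muscle/mural-like sums rest on only 12 cells in knockout 1 and 31 in control 3. In T-like cells it was 217, 268 and 228 per 10000 in knockout libraries, against 185, 216 and 199 in control. In endothelial-like cells it was 269, 263 and 229 in knockout, against 192, 216 and 239 in control, and the groups overlapped. The ratio of mt- to member UMIs had a higher knockout mean in all 13 classes, and no overlap in 5. Complex III sums had a lower knockout mean in all 13, with no overlap in endothelial-like, plasma-like and stellate/fibroblast-like cells. For complex IV the knockout mean was lower in all 13 as well, with no overlap in plasma-like cells. Complex III in endothelial-like cells was at 9.05, 8.65 and 8.69 per 10000 in knockout libraries and 11.03, 9.69 and 9.31 in control. The 13 classes share the same 6 libraries, so they are not independent, and cells above 20% mitochondrial UMIs were left out. Cells with at least 300 genes left out for that reason numbered 390, 185 and 135 in knockout libraries and 187, 114 and 178 in control.

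**Figure D3:**
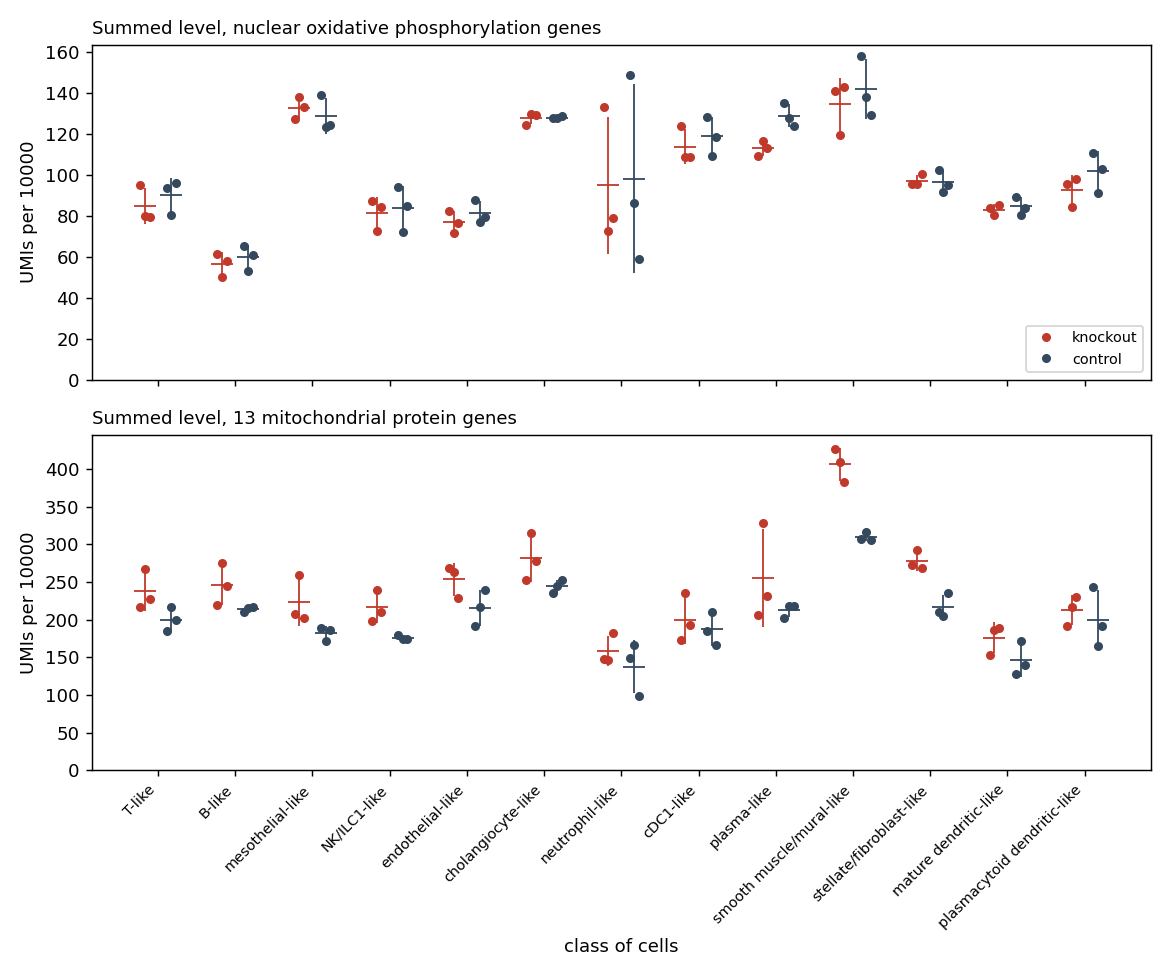
Summed UMIs of the 90 members (one panel) and of the 13 mt- genes (the other) per 10000 UMIs of the class, with 1 point per library, knockout left of control, and bars for the mean ± SD of 3. Member sums overlap between genotypes in all classes but plasma-like cells, while the mt- means are higher in knockout in all 13 classes.

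The targeted gene, Sting1, was at 21.7, 14.9 and 22.6 CPM in endothelial-like cells of knockout libraries, against 27.5, 26.8 and 27.6 CPM in control. The log2 fold change was -0.45 ± 0.17 (SE) with an adjusted p of 0.719 in edgeR's quasi-likelihood test. Knockout values were also below all control values in B-like and NK/ILC1-like cells, and above them in cDC1-like cells. A 3′ tag need not lie in the deleted part, so these values do not measure the deletion.

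For each class, UMIs were summed per library and knockout was compared with control by that test, with Benjamini-Hochberg adjustment over all genes of the class and a threshold of 0.05. CPM from here on are scaled to the TMM-normalized library size, and fold changes are knockout over control on the log2 scale with their SE. In endothelial-like cells, where Sting was targeted, 84 of the 90 members passed the filter on low counts. None was called by edgeR, and neither was any of the 12227 genes tested (0.0% called). On simulated data the fit recovered 50% of endothelial changes of 1 on the log2 scale, so changes of that size or smaller can be missed. DESeq2 called 15 genes and no member.

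At an unadjusted p under 0.05, 3 members were higher in knockout endothelial-like cells, where 2.76% of all genes were, and 19 were lower, where 4.06% of all genes were. Knockout and control libraries did not overlap for 7 members on the higher side (6.59% of all genes) and for 27 members on the lower side (6.31% of all genes). The median log2 fold change of the 84 members was -0.10, against 0.01 for all genes tested. Of the members, 31 had a fold above 0, where 51% of all genes had, and 53 a fold below 0, where 49% of all genes had. Without control replicate 1 or without knockout replicate 3, the 19 members became 10, and the median stayed between -0.16 and -0.06 with each library left out in turn. By complex, 15 of 36 complex I members were above 0 and 21 below, 3 of 8 assembly factors above and 5 below, 2 of 8 complex III members above and 6 below (median -0.20), 4 of 14 complex IV members above and 10 below (median -0.25), and 7 of 18 complex V members above and 11 below.

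Members of smallest p that lay higher without overlap belong to complexes I and V and to the supercomplex factor. Ndufv1, the core complex I subunit that binds NADH, had 39.7, 33.0 and 37.4 CPM in knockout libraries, against 29.9, 27.4 and 28.0 CPM in control libraries. Its log2 fold change was 0.38 ± 0.13 with an adjusted p of 0.719. Each knockout value was above each control value. Ndufa10, a complex I accessory subunit, averaged 47.3 ± 3.86 CPM in knockout and 37.8 ± 3.00 CPM in control (SD, n = 3 each). Cox7a2l averaged 335 ± 27.9 CPM in knockout and 288 ± 12.2 CPM in control. Small differences were also seen in a complex I accessory subunit and in the alpha subunit of ATP synthase. Ndufa9 averaged 19.5 ± 0.687 CPM in knockout and 17.5 ± 1.38 CPM in control. Atp5a1 averaged 203 ± 2.21 CPM in knockout and 189.8 ± 4.02 CPM in control. The adjusted p of these 4 ran from 0.719 to 0.828.

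Among the 27 members that lay lower without overlap, the 6 of smallest p belong to complexes I, III and V. Atp5e had 99.6, 114 and 103 CPM in knockout libraries, against 214, 159.7 and 134 CPM in control libraries, with a log2 fold change of -0.67 ± 0.17 and an adjusted p of 0.719. Atp5md (chr19:47083464-47090647, minus strand), which encodes the ATP synthase subunit DAPIT, had 58.2, 62.4 and 51.2 CPM in knockout, against 133, 84.6 and 73.9 CPM in control (-0.75 ± 0.22, adjusted p 0.719). In both genes control 1 was the highest library and no knockout value reached the control range. Uqcr10 (chr11:4701973-4704342, minus strand), a small subunit of complex III, had 61.0, 62.8 and 68.5 CPM in knockout and 103, 81.1 and 81.4 CPM in control (-0.46 ± 0.13, adjusted p 0.719). Control 1 was again the highest. Atp5j2, the f subunit of ATP synthase, averaged 73.8 ± 3.84 CPM in knockout and 103 ± 10.47 CPM in control. Ndufb2, an accessory complex I subunit, averaged 31.6 ± 2.06 CPM in knockout and 43.8 ± 2.71 CPM in control. Ndufa1 (chrX:37187588-37191163, minus strand) averaged 53.8 ± 1.14 CPM in knockout and 72.4 ± 8.87 CPM in control. These 3 had an adjusted p of 0.719 as well.

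**Figure D4:**
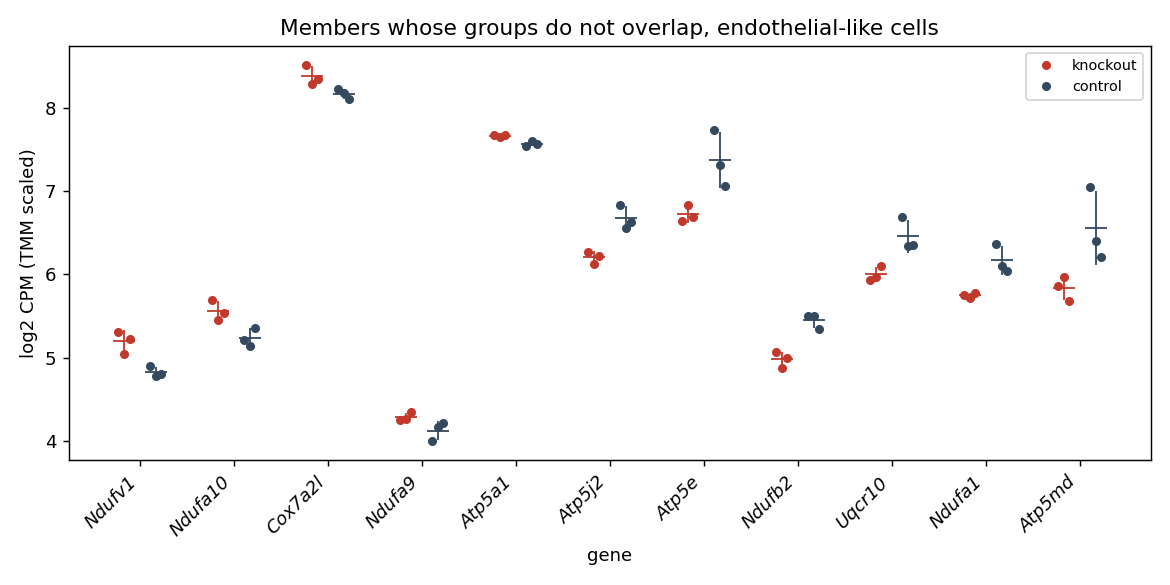
Named members in endothelial-like cells as log2 CPM (TMM-scaled), 1 point per library, knockout left of control, bars the mean ± SD of 3. Knockout points are all above control points for Ndufv1, Ndufa10, Cox7a2l, Ndufa9 and Atp5a1 and all below for Atp5j2, Atp5e, Ndufb2, Uqcr10, Ndufa1 and Atp5md; none passed the adjusted threshold.

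Among the isoforms in endothelial-like cells, Cox4i1 had 424, 376 and 405 CPM in knockout and 390, 369 and 377 CPM in control, with overlap. Cox8a had 199, 161 and 208 CPM in knockout and 288, 225 and 259.9 CPM in control, without overlap (-0.44 ± 0.14, adjusted p 0.719). Cox6b1, Cox7a2 and Cox6a1 did not overlap either and were lower by 0.30, 0.32 and 0.22 on the log2 scale, while Ndufa4 and Cox7b overlapped.

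Endothelial-like cells comprised 4 clusters, and the libraries drew on them unevenly. A cluster led by Stab2, a sinusoidal scavenger receptor, had 80, 18 and 17 cells in knockout libraries and 5, 7 and 84 in control. Its mt- sums were 474, 573 and 495 per 10000 in knockout, against 385, 454 and 379 in control, and its member sums were 62.5, 56.2 and 58.3 in knockout, against 76.9, 78.5 and 57.6 in control. The summed endothelial markers were 92.3, 81.1 and 82.1 per 10000 in knockout endothelial-like cells and 69.2, 66.3 and 73.5 in control, with none of the 10 markers at 0. The summed NK/ILC1 markers were 0.22, 0.09 and 0.39 in knockout, against 0.53, 0.48 and 0.81 in control. The part of these differences in the member values was not tested.

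In the other 9 tested classes no member was called by edgeR. The only genes called were 1 of 13076 in T-like cells (0.00765%) and 1 of 9761 in NK/ILC1-like cells (0.0102%). DESeq2 called 5 of 84 members in mesothelial-like cells, among them Ndufv1, Ndufs7, Atp5d and Atp5md, and none in the other classes. It also called genes outside the members there, and the number of all genes called is given with the alternatives at the end. In mesothelial-like cells the genotypes did not overlap for 24 of 84 members on the higher side, where 12.4% of all genes lay, and for 7 on the lower side (9.91%). At an unadjusted p under 0.05 they had 18 higher (8.75% of all genes) and 5 lower (7.57%). Folds were above 0 for 48 members (49.9% of all genes) and below 0 for 36 (50.1%), and their median log2 fold change was 0.04, against -0.00 for all genes. Ndufv1 had 83.9, 79.6 and 87.5 CPM in knockout mesothelial-like cells, against 57.4, 57.5 and 71.5 CPM in control (0.43 ± 0.11, adjusted p 0.138). Its adjusted p ranged from 0.0374, without the filter on low counts, to 0.365 over the alternatives. Ndufc1 was at 68.3, 80.3 and 69.4 CPM in knockout and 109, 90.8 and 86.6 CPM in control (-0.40 ± 0.11, adjusted p 0.159), and Atp5md had a log2 fold change of -0.54 ± 0.16 (adjusted p 0.170).

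In T-like cells, 0 of 83 members lay without overlap on the higher side (5.68% of all genes) and 11 on the lower (5.74%). At an unadjusted p under 0.05 there were 1 higher (3.04% of all genes) and 12 lower (3.17%). Folds were above 0 for 31 members (50.8% of all genes) and below 0 for 52 (49.2%), with a median of -0.10, against 0.00 for all genes. Cox7c, a small complex IV subunit, had 214, 199.8 and 178 CPM in knockout T-like cells, against 309.9, 242 and 255 CPM in control (-0.45 ± 0.12, adjusted p 0.745). Cox7a2 averaged 120.0 ± 14.8 CPM in knockout and 157 ± 17.1 CPM in control, also without overlap. In B-like cells 1 of 82 members lay on the higher side (4.8% of all genes) and 7 on the lower (6.06%), with 1 higher (1.74%) and 9 lower (4.31%) at an unadjusted p under 0.05. Folds there were above 0 for 27 members (48.6% of all genes) and below 0 for 55 (51.4%), with a median of -0.13, against -0.01 for all genes. Cox6c, a small complex IV subunit, had 98.2, 85.2 and 82.3 CPM in knockout B-like cells, against 151, 108 and 111 CPM in control (-0.48 ± 0.14, adjusted p 0.506). Cox6c passed the threshold with the replicate number as a block (adjusted p 0.0386) and without the filter on low counts (adjusted p 0.0284), and its adjusted p reached 0.999 under other alternatives. Ndufc1 averaged 17.1 ± 0.441 CPM in knockout B-like cells and 23.2 ± 2.07 CPM in control. The member on the higher side was Atp5a1, at 276 ± 22.3 CPM in knockout B-like cells and 228 ± 19.4 CPM in control. The summed B-cell markers in T-like cells were 0.41, 0.42 and 0.32 per 10000 in knockout libraries and 0.26, 0.22 and 0.16 in control, and their part was not tested.

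The genotype effect in endothelial-like cells was set against that in T-like cells in 1 model with library as a block. The class by genotype term was called for 2 of 13854 genes (0.0144%) and for none of 84 members, of which 0 had an unadjusted p under 0.05. The median difference of log2 fold changes was -0.04 for the members and -0.03 for all genes. A difference between these classes was thus not detected for any member.

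Cholangiocyte-like cells had 13 of 85 members without overlap on the higher side (8.56% of all genes) and 11 on the lower (7.78%), and 13 higher (5.2%) and 4 lower (4.45%) at an unadjusted p under 0.05. Folds were split evenly, 42 above 0 (49.8% of all genes) and 43 below (50.2%). Ndufv1 averaged 70.0 ± 2.87 CPM in knockout cholangiocyte-like cells and 51.5 ± 9.66 CPM in control. Atp5md averaged 102 ± 11.6 CPM in knockout and 155 ± 41.1 CPM in control. Both genes were also without overlap, in the same directions, in mesothelial-like cells. Ndufa9 averaged 39.4 ± 2.43 CPM in knockout and 31.0 ± 2.80 CPM in control, and for Ndufa1 the means were 51.5 ± 5.79 CPM in knockout and 63.6 ± 0.350 CPM in control. The summed hepatocyte markers (8, none at 0) were 42.1, 43.0 and 43.1 per 10000 in knockout cholangiocyte-like cells and 37.6, 38.1 and 40.8 in control, and their part was not tested.

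In cDC1-like cells, conventional dendritic cells that cross-present antigen, 2 of 81 members lay on the higher side (5.78%) and 12 on the lower (6.05%), with 0 higher (2.5%) and 17 lower (4.35%) at an unadjusted p under 0.05. Folds were above 0 for 33 members (50.1% of all genes) and below 0 for 48 (49.9%). Cox7c had 272, 289.7 and 241 CPM in knockout cDC1-like cells, against 464, 348 and 323 CPM in control (-0.50 ± 0.16, adjusted p 0.582). Atp5md averaged 112.1 ± 7.52 CPM in knockout and 163.6 ± 44.1 CPM in control. On the higher side, Cox7a2l averaged 312 ± 34.5 CPM in knockout and 257 ± 13.8 CPM in control. Uqcrc1 averaged 69.0 ± 7.17 CPM in knockout and 56.2 ± 4.21 CPM in control. The class's own markers, none at 0, summed to 41.7, 40.4 and 40.7 per 10000 in knockout and 33.3, 33.9 and 36.4 in control, and their part was not tested.

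NK/ILC1-like cells had 1 of 81 members on the higher side (5.39%) and 5 on the lower (6.23%), with 1 higher (2.39%) and 7 lower (3.98%) at an unadjusted p under 0.05. Folds were above 0 for 37 members (50.3% of all genes) and below 0 for 44 (49.7%). Cox7a2l averaged 235 ± 32.9 CPM in knockout NK/ILC1-like cells and 184 ± 15.2 CPM in control. Cox7c averaged 178 ± 7.81 CPM in knockout and 243 ± 47.1 CPM in control. As in T-like and cDC1-like cells, every knockout library was below every control library for Cox7c. Ndufc1 averaged 23.9 ± 2.18 CPM in knockout and 33.6 ± 9.21 CPM in control.

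Plasma-like cells had 3 of 81 on the higher side (5.59%) and 6 on the lower (5.34%), with 2 higher (2.63%) and 8 lower (2.99%) at an unadjusted p under 0.05. Folds were above 0 for 37 members (50.7% of all genes) and below 0 for 44 (49.3%). Uqcr10 averaged 86.2 ± 4.95 CPM in knockout plasma-like cells and 119 ± 26.9 CPM in control. Atp5l, the g subunit of ATP synthase, averaged 239 ± 4.33 CPM in knockout and 299 ± 28.2 CPM in control. Both were lower without overlap. Ndufv1 averaged 41.4 ± 5.76 CPM in knockout and 30.6 ± 3.80 CPM in control. Atp5g3 averaged 229 ± 4.67 CPM in knockout and 203 ± 16.9 CPM in control.

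Stellate/fibroblast-like cells, the matrix-producing cells of the liver, had 4 of 76 members on the higher side (4.59%) and 10 on the lower (4.65%), with 2 higher (1.07%) and 1 lower (1.84%) at an unadjusted p under 0.05. Folds were above 0 for 37 members (50.4% of all genes) and below 0 for 39 (49.6%). Ndufa4l2 had 14.8, 8.43 and 14.1 CPM in knockout stellate/fibroblast-like cells, against 20.9, 18.6 and 40.9 CPM in control (-1.19 ± 0.43, adjusted p 1.00). Control 3 was the highest library. Atp5e averaged 184 ± 28.7 CPM in knockout and 238 ± 29.3 CPM in control. Atp5c1, the gamma subunit of ATP synthase, averaged 176 ± 24.6 CPM in knockout and 126 ± 34.8 CPM in control. Neutrophil-like cells had 0 of 79 members without overlap in either direction (2.56% and 2.51% of all genes on the higher and lower sides) and 0 at an unadjusted p under 0.05 (0.338% and 0.728% of all genes). Their folds were above 0 for 40 members (46.8% of all genes) and below 0 for 39 (53.2%).

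All 10 class comparisons draw on the same 3 knockout and 3 control libraries, so a gene's folds in them are not independent repeats. Of the 75 members tested in all 10 classes, 23 had a fold below 0 in each of the 10, as had 6.43% of the 5461 genes tested in all of them, and 12 a fold above 0 in each (6.35%). The 23 included Cox7c (-0.50 to -0.26), Atp5md (-0.75 to -0.38), Uqcr10 (-0.56 to -0.20), Atp5e (-0.67 to -0.23) and Ndufc1 (-0.59 to -0.20). Of these, Ndufc1 lay lower without overlap between genotypes in 8 classes, Cox7c in 7, and Atp5md and Uqcr10 in 6 each. Of the 5461 genes, these members included, 0.146% (8 genes) did so in at least 8 classes, 0.256% (14) in at least 7 and 0.568% (31) in at least 6. The 12 included Atp5c1 (0.11 to 0.46), Atp5b (0.02 to 0.43), Uqcrc1 (0.02 to 0.54) and Cox4i1 (0.09 to 0.25).

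Transcript length was looked at after the folds had been seen and was taken from GENCODE M21. All 90 members had a length, of 360 to 3632 bases with a median of 759. A length is the median over the protein-coding transcripts that the annotation marks as principal, or else the longest coding transcript. Some lengths are therefore not whole numbers, for instance 870.5 for Ndufs7. The 23 members below 0 in all classes had a median of 547 bases, and the 12 above 0 a median of 1168. Cox7c (540 bases), Uqcr10 (434), Atp5e (421) and Atp5md (362) are among the short ones of the 23, and Uqcrc1 (1653) and Atp5b (1916) among the long ones of the 12. The division was not complete: 7 of the 23 were longer than the members' median, among them Ndufc1 (782), Uqcrq (963), Cox7b (1001) and Ndufv3 (1582). Of the 12, 3 were at or under that median, namely Cox4i1 (755), Ndufb10 (732) and Ndufb8 (680). Across members, Spearman's rho of fold change against transcript length was 0.51 in endothelial-like cells (84 genes) and 0.38 to 0.57 over the 10 classes. Over the alternatives, leaving aside the fit without the filter on low counts, it ran from 0.18 to 0.60. The lowest was in stellate/fibroblast-like cells without control replicate 1, against 0.38 with all libraries. Without that library rho was 0.43 in endothelial-like cells. Genes are not independent replicates and no test is given.

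In endothelial-like cells the 40 members under the median length had a median log2 fold change of -0.21, with 9 above 0 and 31 below, and the 44 others a median of -0.00, with 22 on each side. In T-like cells the shorter had -0.19 and the longer 0.02, and in mesothelial-like cells -0.03 and 0.18. The cytosolic ribosomal protein genes gave a rho of 0.54 to 0.58 over the classes. Genes outside both sets gave -0.28 to -0.02. In endothelial-like cells the 280 of those that were shorter than the members' median nevertheless had a median log2 fold change of -0.10, with 101 above 0 and 179 below, against 0.01 for the 11210 longer ones. No cause of the relation was tested.

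**Figure D5:**
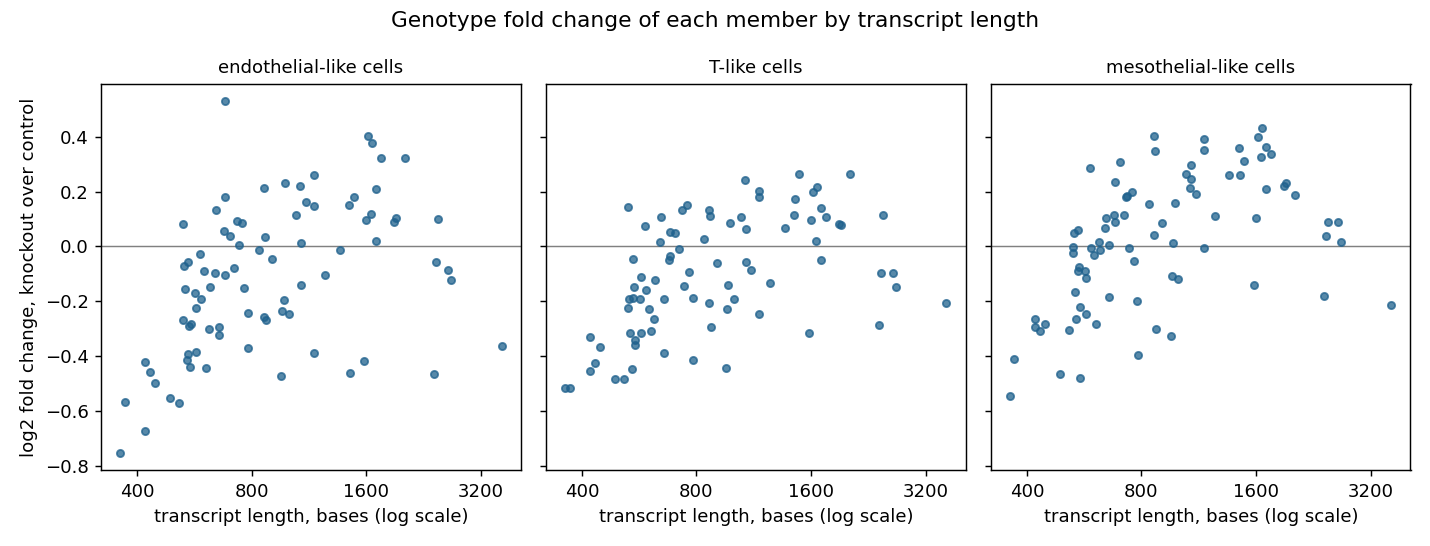
Log2 fold change (knockout over control) of each tested member against transcript length in bases (log axis), in endothelial-like, T-like and mesothelial-like cells; 1 point per member. Members under 759 bases lie mostly below 0, and longer members lie on both sides of 0 or, in mesothelial-like cells, mostly above it (rho 0.51, 0.55 and 0.57).

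The mt- genes, which supply the core of the same complexes, did not share 1 direction. None of the 13 was called by edgeR in any of the 10 classes. mt-Co3, which encodes a core subunit of complex IV, had a fold above 0 in all 10 classes (0.15 to 0.43) and no overlap between genotypes in 9. mt-Nd1 (0.18 to 0.56) and mt-Atp6 (0.14 to 0.41) were above 0 in all 10 as well, with no overlap in 8 and 7. mt-Nd4l, a core complex I subunit, was below 0 in all 10 classes (-1.13 to -0.56), with no overlap in 8. Of the 5461 genes tested in all 10 classes, 6.35% were above 0 in each and 6.43% below. Without overlap, 1 gene (0.0183%) lay higher in at least 9 classes, mt-Co3 itself. In at least 8 there were 2 (0.0366%), mt-Co3 and mt-Nd1, and in at least 7 there were 7 (0.128%), mt-Atp6 among them. Lower without overlap in at least 8 were 8 genes (0.146%), with mt-Nd4l and Ndufc1 among them. The 10 classes draw on the same libraries, so these are not independent repeats. In endothelial-like cells mt-Nd4l had 68.7, 79.6 and 48.2 CPM in knockout libraries, against 129.6, 100.5 and 128 CPM in control libraries (-0.87 ± 0.20, adjusted p 0.719). In T-like cells it had 43.6, 57.9 and 35.5 CPM in knockout, against 99.4, 87.9 and 74.8 CPM in control (-0.94 ± 0.18, adjusted p 0.538). DESeq2 called mt-Nd4l in T-like, B-like, mesothelial-like and cDC1-like cells. Of these, the number of all genes it called is given below for mesothelial-like cells only.

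mt-Co3 had 4385, 4114 and 3999 CPM in knockout endothelial-like cells, against 3234, 3508 and 3887 CPM in control (0.23 ± 0.14, adjusted p 0.742). mt-Nd6, the gene on the other mitochondrial strand, had 17.4, 17.5 and 17.3 CPM in knockout endothelial-like cells, against 21.9, 22.3 and 22.5 CPM in control (-0.36 ± 0.13, adjusted p 0.719). mt-Nd4l and mt-Nd4 overlap, as do mt-Atp8 and mt-Atp6, so reads at their borders cannot be assigned with certainty. mt-Nd4l (297 bases) and mt-Atp8 (204 bases, below 0 in all 10 classes) are the shortest of the 13.

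Other genes of mitochondrial energy metabolism were read from 6 lists. In endothelial-like cells none of the genes on them was called. At an unadjusted p under 0.05, 4 of 15 genes of the glycolysis list were higher and 0 lower. That list also holds Ldha, Slc2a1 and Pdk1, and Pdk1 is 1 of the 4. Of 27 assembly factors outside the name rule 0 were higher and 2 lower, and of 14 import and chaperone genes 0 and 2. Of all genes, 2.76% were higher and 4.06% lower. Genes of the glycolysis list were also higher at that threshold in mesothelial-like cells, 4 of 15 (8.75% of all genes), and in cholangiocyte-like cells, 4 of 14 (5.2%). They numbered 0 or 1 in the other 7 classes. In endothelial-like cells no gene passed in either direction among 6 genes of complex II and cytochrome c or 13 enzymes of the TCA cycle. Nor did any of 10 regulators of mitochondrial biogenesis pass there. In mesothelial-like cells 4 of 13 TCA cycle genes, 2 of 6 complex II and cytochrome c genes and 6 of 28 assembly factors were higher. On these lists 0, 0 and 2 were lower. In cholangiocyte-like cells 2 of 6 complex II and cytochrome c genes, 2 of 12 regulators and 0 of 13 TCA cycle genes were higher. On each of these, 0 were lower. Pfkl, a subunit of phosphofructokinase, had 68.3, 52.2 and 58.2 CPM in knockout endothelial-like cells, against 39.9, 36.7 and 43.6 CPM in control (0.57 ± 0.14, adjusted p 0.719). Pdk1, a kinase that restrains the entry of pyruvate carbon into the TCA cycle, averaged 30.6 ± 8.71 CPM in knockout and 20.1 ± 0.892 CPM in control. Hspe1, a mitochondrial chaperonin subunit, had 156, 163.8 and 175 CPM in knockout and 202, 295 and 267 CPM in control (-0.63 ± 0.15, adjusted p 0.719). Its partner Hspd1 averaged 107 ± 9.56 CPM in knockout and 158 ± 39.1 CPM in control, with overlap.

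Uqcc2, a complex III assembly factor, had 23.0, 23.5 and 28.0 CPM in knockout endothelial-like cells, against 36.7, 35.3 and 32.2 CPM in control (-0.47 ± 0.14, adjusted p 0.719). Cox17, the copper chaperone of complex IV, averaged 44.4 ± 9.23 CPM in knockout and 68.9 ± 19.8 CPM in control. Among regulators, Esrra, an estrogen-related receptor, averaged 17.2 ± 1.05 CPM in knockout and 13.02 ± 2.99 CPM in control, without overlap. Pprc1, a coactivator related to PGC-1, averaged 40.6 ± 8.23 CPM in knockout and 49.8 ± 5.27 CPM in control, with overlap. Sdha and Sdhd of complex II and Suclg1 and Idh3b of the TCA cycle overlapped between genotypes, with log2 fold changes of 0.07 to 0.23. No list gene was called in any of the other 9 classes either.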

How the data were processed

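Livers of 3 knockout and 3 control mice gave 1 single-cell library each; every mouse is 1 replicate. The authors deposited matrices of raw UMI counts per gene and cell, made with Cell Ranger 7.1.0 on mm10 per the submitters' processing notes; the annotation release is not given in the sources used here. A UMI marks 1 captured molecule near its 3′ end, so counts were not divided by length, and how reads of overlapping genes were assigned is not given.

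Barcodes with fewer than 300 genes or over 20% mt- UMIs were dropped, and 906 doublets were removed with Scrublet (score above 0.2726, expected rate 0.06; its automatic threshold worked in 4 libraries). Cells were clustered in scanpy 1.11.5 (3000 variable genes without members and mt- genes, 40 components, 20 neighbours, Leiden resolution 1). Clusters were called X-like from marker lists (score at least 0.5, margin 0.3); 2131 cells (5.10%) stayed unnamed. With members allowed among the variable genes, 99.2% of cells kept their class.

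UMIs were summed per class and library and tested with edgeR 4.0.16 (R 4.3.3; TMM, filterByExpr, robust quasi-likelihood, Benjamini-Hochberg adjustment, threshold 0.05), with DESeq2 1.42.0 as an alternative. The script was tested on simulated data. At a log2 fold of 1 it recovered 50% of 96 changed genes in endothelial, 78.4% of 97 in T and 76.3% of 97 in B cells. At a log2 fold of 2 it recovered 91.9%, 94.9% and 96.9%. False calls numbered 10, 5 and 15. Alternatives were other normalization, no filter, stricter cell filters, each library left out and a replicate block. Intervals and floors cover counting error only. Members named by genotype were, per class, those of smallest p without overlap between groups whose mean log2 CPM reached 4 (up to 6 each way in endothelial-like cells, 2 elsewhere; 1 is not reported here); members named by level were the highest and the widest-ranging of each complex and the complex IV isoforms. The members and lists were chosen with earlier results of these data known. Transcript length and each endothelial-like or neutrophil-like cluster alone were looked at after values had been seen. Promoter windows are RefSeq's; gene positions and lengths are GENCODE M21 (GRCm38). Deviations of same-numbered libraries correlated above 0.1 for some pairs but for all 3 pairs in no class, so the numbers were not taken as pairs.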

Additional observations from a re-analysis of the deposited data

How the results depend on the processing

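Over all alternatives, 622 values of the main comparisons kept their side of the threshold or stayed within the spread between libraries, 16 passed the threshold where the main value did not, and 5 moved beyond that spread. With DESeq2, 5 members were called in mesothelial-like cells and 1 mt- gene, mt-Nd4l, in each of T-like, B-like, mesothelial-like and cDC1-like cells. Without the filter on low counts, 2 members were called in B-like cells (Atp5e, Cox6c), 2 in mesothelial-like cells (Ndufv1 among them) and 1 in cDC1-like cells (Atp5mpl), with 2 mt- genes in B-like cells and 1 each in NK/ILC1-like, cDC1-like and plasma-like cells. Under library totals alone the member median in plasma-like cells was -0.14, and all genes there had a median of -0.12. The summed endothelial-like ratio was -0.08 on the log2 scale and -0.27 in the Stab2 cluster alone, which was looked at after seeing the data. The cause of these changes was not tested.

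With the replicate number as a block, 1 member was called in B-like cells (Cox6c) and 1 mt- gene each in B-like and NK/ILC1-like cells. Same-numbered libraries correlated at -0.25 to 0.61 in their deviations from the group means. No class had all 3 pairs above 0.1. In 1 class, stellate/fibroblast-like cells, every library correlated best with its own number. Such correlations cannot decide whether same-numbered libraries share more than a number, and this was not tested further. Leaving out 1 library at a time, the member median turned sign in 6 of 10 classes. It ranged from -0.33 (without knockout replicate 1) to 0.44 (without control replicate 1) in neutrophil-like, -0.15 (without knockout replicate 1) to 0.10 (without knockout replicate 2) in NK/ILC1-like, -0.11 to 0.027 in plasma-like, -0.15 to 0.01 in cDC1-like, -0.05 to 0.03 in stellate/fibroblast-like and -0.0087 to 0.028 in cholangiocyte-like cells, and from -0.16 to -0.06 in endothelial-like cells. Over the same settings mt- genes called in NK/ILC1-like cells numbered 0 to 1 (1 without knockout replicate 2). In endothelial-like cells DESeq2 called 15 genes, and leaving out control replicate 3 gave 78 called by edgeR, 0 of them members. In mesothelial-like cells DESeq2 called 264 genes and the unfiltered fit 193, members included, against 0 of 13473 tested in the main fit. In B-like cells the block called 31 and the unfiltered fit 89, members included, against 0 of 11294 tested in the main fit. For calls in the other classes, and for DESeq2 in B-like cells, the number of all genes called is not given here. Those calls of members and mt- genes therefore stand without a share over all genes. Depth limits the lowest members: 3 passed the filter in no class.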
